A study of Mus musculus with 73 samples.

Results

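The comparison set 6 epiblasts with disrupted Ehmt1 and Ehmt2, the genes of the histone methyltransferases Glp and G9a, against 9 epiblasts with disrupted Eed, a Polycomb gene. These 15 libraries were chosen by their titles from the 73 samples of the series, and 7 wild-type epiblasts of the same cross served only as the reference level. Every embryo was collected at E6.5 and had a BDF1 mother and a CAST father, so that reads over strain polymorphisms could be assigned to the maternal or the paternal allele. Both knockouts came from zygotes made by intracytoplasmic sperm injection, injected with Cas9 mRNA and several guide RNAs against different exons of each target and transferred to CD-1 foster females, so each embryo is an independent edit and its cells may carry different edited alleles. The G9a-Glp group held 3 female and 3 male embryos, the Eed group 4 and 5, and the wild-type group 3 and 4. Each library was 1 epiblast, freed of visceral endoderm and extraembryonic ectoderm (ExE) by dissection, so replicates are separate embryos.

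G9a and Glp form a heterodimer that places mono- and dimethylation on lysine 9 of histone H3 (H3K9), a mark of silent chromatin at germline genes and retroelements in early embryos. Eed is a core subunit of Polycomb repressive complex 2 (PRC2), which trimethylates lysine 27 of histone H3 (H3K27) and keeps developmental regulators such as the Hox genes silent in the epiblast. Some imprinted genes, expressed from 1 parental allele, depend on either system for silencing of the other allele.

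Libraries held 1637260 to 2860524 polymorphism-overlapping reads in the G9a-Glp group, 1421066 to 3500256 in the Eed group and 1311863 to 3028267 in wild type, over autosomes and the X chromosome. Levels are given as CPM, these reads scaled to the same library total, which are not corrected for gene length. Wild-type embryo 8 stood apart, with 20567 genes detected against 14235 to 15118 in the other 6, so wild-type ranges are also given without it where that matters. On the second principal component of the 15 knockout libraries, Eed embryos 6, 9 and 10 lay at -21.1, -34.8 and -52.2. The other Eed libraries lay at 1.72 to 31.2. Fits without Eed embryos 9 and 10, given below, kept embryo 6. Eed embryo 10 had a median Spearman correlation of 0.919 with G9a-Glp libraries and 0.917 with its own group. The first component (28.4% of variance) separated the 2 knockouts. Labels name no batch. The summed level of 30 epiblast identity genes was 6994 to 10386 CPM in the G9a-Glp knockout, 6923 to 10954 in the Eed knockout and 5765 to 8559 in wild type.

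Eed itself followed its label. Its lowest, median and highest levels were 87.7, 126 and 189 CPM in the G9a-Glp knockout, 2.81, 7.71 and 19.8 in the Eed knockout and 38.1, 174 and 205 in wild type. The log2 difference (G9a-Glp minus Eed, as throughout) was 3.83 (SE 0.28, edgeR adjusted p = 2.43e-09). Ehmt1 did not separate the groups as cleanly, at 4.14, 18.0 and 50.5 CPM against 32.5, 42.6 and 56.3 in the Eed knockout and 14.5, 27.5 and 39.8 in wild type. Ehmt1 differed by -1.07 (SE 0.32, edgeR adjusted p = 0.0371). The libraries labelled G9a-Glp embryo 2 and embryo 7 had 29.3 and 50.5 CPM of Ehmt1, within and above the wild-type range. Ehmt1 lost its call without any 1 of G9a-Glp embryos 1, 3, 4 or 5 or Eed embryos 1, 2, 3, 4 or 6 (edgeR adjusted p 0.0513 to 0.0895). Ehmt2 was at 1.13, 2.98 and 5.50 CPM in the G9a-Glp knockout, 0.396, 2.52 and 6.27 in wild type and 2.53, 10.8 and 28.3 in the Eed knockout, so it was low in wild type as well and higher in the Eed knockout. Ehmt2 differed by -2.06 (SE 0.41, edgeR adjusted p = 0.00129). Editing outcomes per embryo are not given in the sources used here. Whether edited transcripts still gave reads, or editing was incomplete in embryos 2 and 7, was not tested. Levels of Ehmt1 and Ehmt2 therefore do not check the G9a-Glp labels. Adjusted p-values without embryos 2 and 7 are given beside each named call that was lost without them.

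The 2 knockouts differed at many autosomal genes, and more of the called genes were higher in the Eed knockout. Of 9910 genes tested, 276 (2.79%) were higher in the G9a-Glp knockout and 624 (6.3%) were higher in the Eed knockout by edgeR's quasi-likelihood test at an adjusted p under 0.05. All 6 G9a-Glp values lay on 1 side of all 9 Eed values, with a call, for 333 genes (3.36% of those tested). The median log2 difference of all genes tested was -0.0046. Without Eed embryos 9 and 10, 572 genes were higher in the G9a-Glp knockout and 691 in the Eed knockout. A sex-by-knockout term was called by edgeR for 0 of 9910 genes, and 1308 genes had an unadjusted p under 0.05. In bulk samples, fewer cells of a type and less RNA per cell cannot be told apart.

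Knockout means were set beside the wild-type mean on log2(CPM + 1). Of the 276 genes higher in the G9a-Glp knockout, the G9a-Glp mean was farther from wild type for 239. For the other 37, the Eed mean was farther. Among the 624 genes higher in the Eed knockout, the Eed mean was farther for 414 and the G9a-Glp mean for 210. The side of wild type was set by the call and is not a separate result. A higher group that was farther had to lie above wild type, and a lower group that was farther had to lie below it. All 6 G9a-Glp libraries exceeded all 7 wild-type libraries at 149 of the 276 genes, and all 9 Eed libraries did so at 134 of the 624 genes. Without wild-type embryo 8 these counts were 173 and 189. The same count was not made over all 9910 genes tested, and the bar is harder to clear for 9 libraries than for 6. Whether the knockouts differ in this respect was therefore not tested. Long noncoding RNA genes made up 15.6% of the genes higher in the G9a-Glp knockout (43 of 276), 3.85% of those higher in the Eed knockout (24 of 624) and 5.28% of all genes tested. Genes with a wild-type median under 1 CPM were 40 of the 276, 50 of the 624 and 229 of all 9910. The filter on low counts used the knockout libraries alone. A gene this low in wild type could thus be tested mainly through a knockout where it was higher. These counts are therefore partly set by the filter, and the noncoding shares may be too.

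**Figure D1:**
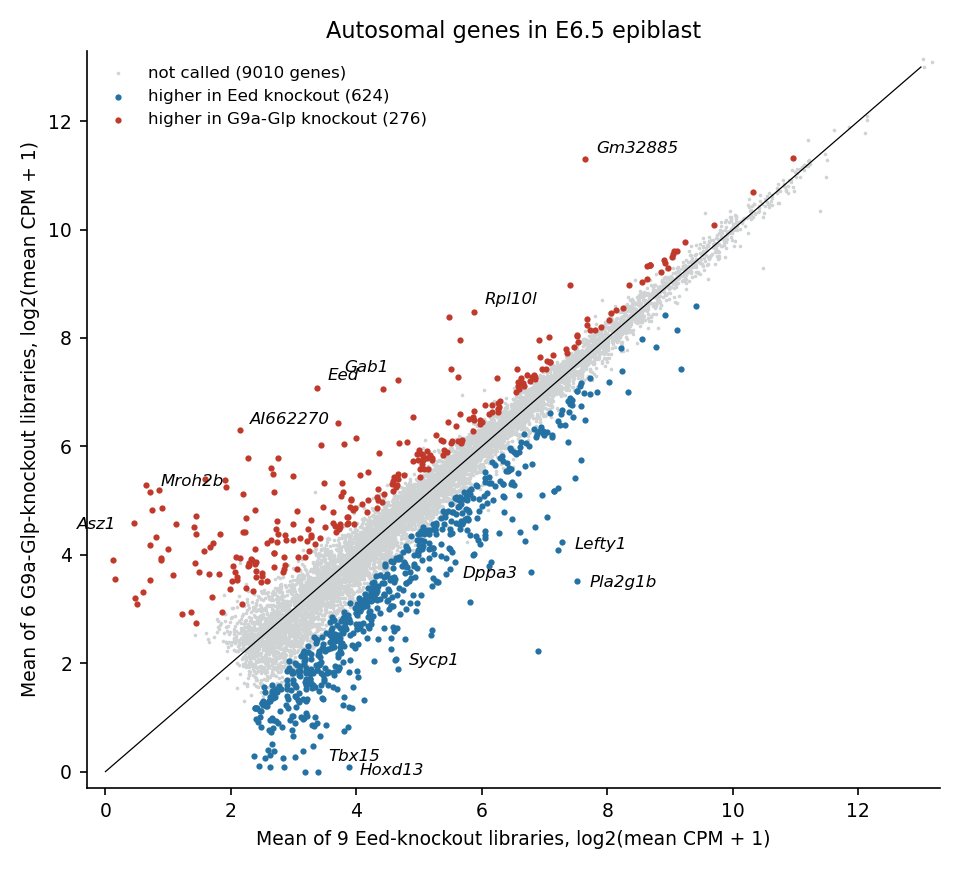
Mean level of each of 9910 tested autosomal genes, as log2(mean CPM + 1), in the 9 Eed-knockout libraries (x axis) and the 6 G9a-Glp-knockout libraries (y axis); coloured points passed edgeR's quasi-likelihood test and the line marks equal levels. The 624 genes higher in the Eed knockout lie below the line and the 276 higher in the G9a-Glp knockout above it, with Hoxd13 and Tbx15 near 0 on the y axis and Asz1 near 0 on the x axis.

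The genes with the largest differences toward the G9a-Glp knockout were at most a few CPM in the Eed knockout and wild type, apart from AI662270 in 1 Eed library. They were chosen as the 12 largest called differences without overlap and with a mean of at least 5 CPM in the higher group. Asz1 (chr6:18050964-18109061), which protects the germline genome through the piRNA pathway, had lowest, median and highest levels of 17.1, 23.7 and 28.2 CPM in the G9a-Glp knockout, 0, 0.421 and 0.651 in the Eed knockout and 0, 0.33 and 1.09 in wild type. Its difference was 5.82 (SE 0.34, edgeR adjusted p = 8.88e-11), and every G9a-Glp library was above every other library. C8b (chr4:104766317-104804548), the beta chain of complement component 8, was at 8.13, 9.17 and 17.5 CPM in the G9a-Glp knockout and 0, 0 and 1.01 in the Eed knockout, with 0 reads in all 7 wild-type libraries. With 157 reads against 2, its pooled ratio was 119 (95% exact counting interval 32.3 to 988), and the fitted log2 difference was 6.25 (SE 0.55, edgeR adjusted p 4.64e-08). Tph2 (chr10:115078641-115185022), the neuronal tryptophan hydroxylase that makes serotonin, was at 9.41, 15.0 and 26.9 CPM in the G9a-Glp knockout and 0, 0 and 2.81 in the Eed knockout, a difference of 4.87 (SE 0.60, edgeR adjusted p = 4.92e-06). Mroh2b (chr15:4898649-4962203), a HEAT-repeat gene, was at 24.4, 32.6 and 54.6 CPM against 0, 0 and 2.42, a difference of 5.61 (SE 0.48, edgeR adjusted p = 2.60e-08). All 6 G9a-Glp values of each of these genes lay above all 9 Eed values, which the choice required.

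The long noncoding RNA 1700019E08Rik had 203 reads in the G9a-Glp group against 2 in the Eed group, a pooled ratio of 153 (95% exact counting interval 41.9 to 1275), with library levels of 8.28, 13.2 and 22.0 and 0, 0 and 0.421 CPM. AI662270, another noncoding RNA, was at 35.4, 86.8 and 123 CPM in the G9a-Glp knockout and 0, 2.39 and 17.6 in the Eed knockout, where embryo 8 was highest. Its difference was 4.43 (SE 0.54, edgeR adjusted p = 4.44e-06). The other 6 were the protein-coding 1700019A02Rik (log2 difference 5.35), the noncoding Gm33301 (5.44), 4933427D06Rik (4.87), Gm36229 (4.62) and 4932412D23Rik (4.46), and LOC108167542 (5.77), whose annotated span overlaps Gm3134, so reads of these 2 may be shared. In wild type, the medians of these 6 were between 0 and 0.839 CPM.

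The 12 largest differences toward the Eed knockout, chosen by the same rule, held 5 developmental transcription factors (Tbx15, Hoxd13, Hoxb2, Dmrt3 and Twist1), noncoding RNAs and genes of other kinds. Hoxd13 (chr2:74668310-74671599), a posterior Hox gene of limb and genital patterning, was at 11.2, 12.4 and 25.1 CPM in the Eed knockout and 0, 0 and 0.387 in the G9a-Glp knockout. With 315 reads against 1, the pooled ratio was 209 (95% exact counting interval 37.2 to 8262), and the fitted difference was -6.83 (SE 0.52, edgeR adjusted p 6.31e-09). Tbx15, a T-box factor of limb and skeletal development, had 0 reads in all 6 G9a-Glp libraries and 2.79, 10.02 and 15.1 CPM in the Eed knockout, so it was at least 45.7-fold higher there, taking 3 counts over the G9a-Glp group as the limit. The noncoding Gm42280 was also at 0 in all 6 and at least 39.3-fold higher in the Eed knockout. Both groups were apart at each of these genes, again as the choice required.

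Twist1, a mesodermal helix-loop-helix factor, was at 2.57, 7.56 and 15.4 CPM in the Eed knockout, 0, 0 and 1.05 in the G9a-Glp knockout and 0, 0.843 and 3.81 in wild type, a difference of -4.31 (SE 0.61, edgeR adjusted p = 2.83e-05). Plk5, a Polo-like kinase family member, was at 8.22, 9.85 and 25.1 CPM against 0, 0.591 and 2.10, a difference of -3.99 (SE 0.49, edgeR adjusted p = 5.19e-06). The remaining genes of the 12 were Hoxb2, Dmrt3, a DM-domain factor, Haglr, a noncoding RNA of the Hoxd cluster, Gm11538, Tmem45b, Dnaja4 and Pla2g1b. Pla2g1b, a secreted phospholipase A2, differed from the others in being well expressed in wild type: it was at 65.7, 78.9 and 170.0 CPM there, 4.89, 9.97 and 20.7 in the G9a-Glp knockout and 109, 170.3 and 342 in the Eed knockout, a difference of -4.10 (SE 0.33, edgeR adjusted p = 1.25e-08). All 6 G9a-Glp values of Pla2g1b lay below all 7 wild-type values, while the Eed and wild-type ranges overlapped. The plot of levels by library shows these genes together.

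**Figure D2:**
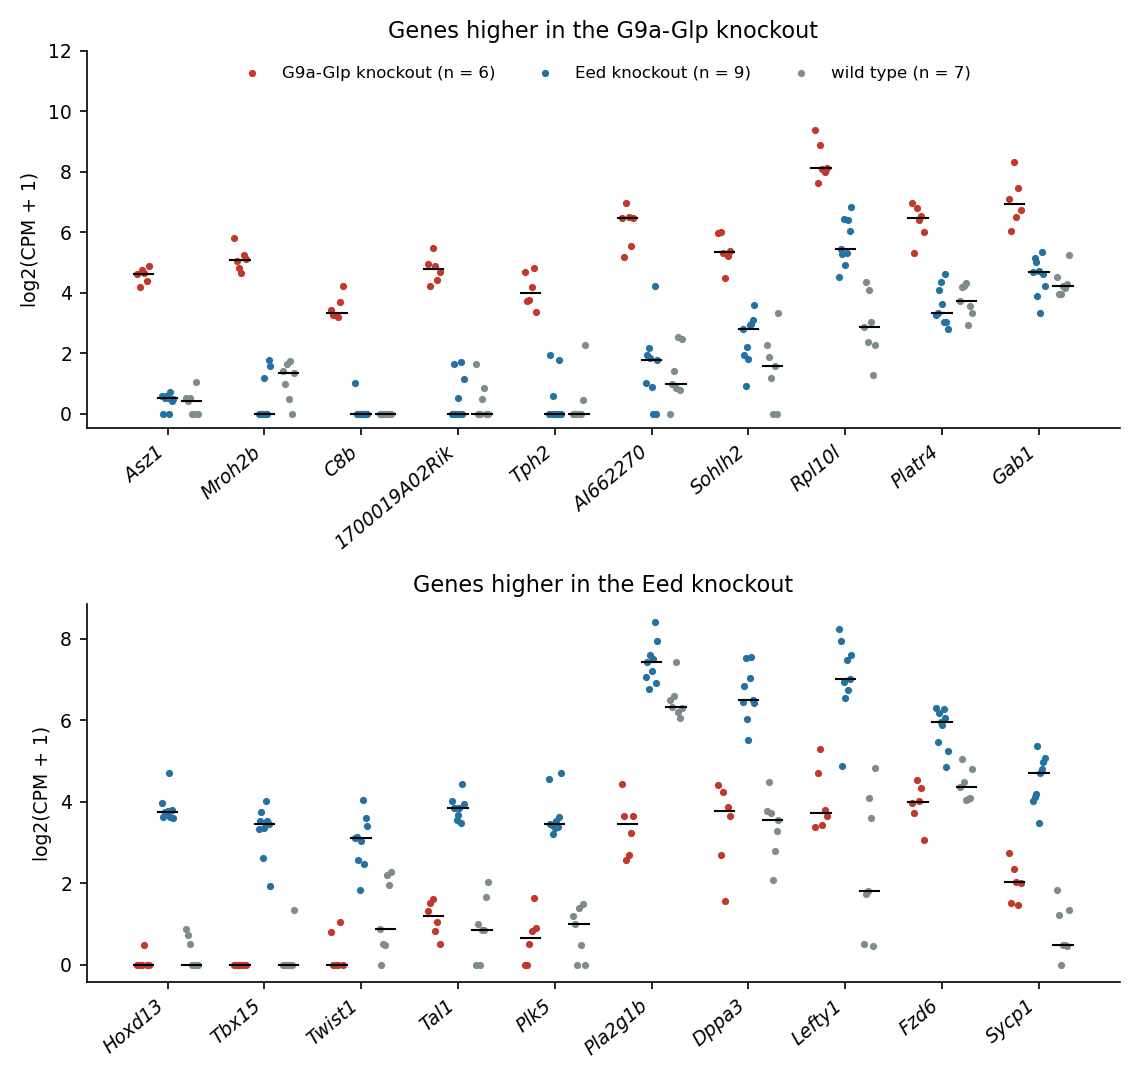
Level of 20 named genes in each library, as log2(CPM + 1), with 1 point per library and a bar at the median of each group. In the upper panel, for example, Asz1 is at 17.1 to 28.2 CPM in the G9a-Glp knockout and at most 1.09 CPM elsewhere, and in the lower panel Hoxd13 is at 11.2 to 25.1 CPM in the Eed knockout and at most 0.843 CPM elsewhere.

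Sequences just before a RefSeq start are shown for 4 genes, because silencing by both systems is studied at promoters and their content of CpG dinucleotides. Asz1 and Mroh2b are of those higher in the G9a-Glp knockout, and Hoxd13 and the meiotic gene Sycp1 of those higher in the Eed knockout. RefSeq starts can differ from the deposited gene spans given above. The Mroh2b window reaches into its deposited span, and the Hoxd13 window leaves a gap before its span. The 250 bases are RefSeq's, build GRCm38.p6, read 5′ to 3′ on the gene's strand, with each CpG in capitals.
Asz1 (chr6:18109062-18109311, minus strand): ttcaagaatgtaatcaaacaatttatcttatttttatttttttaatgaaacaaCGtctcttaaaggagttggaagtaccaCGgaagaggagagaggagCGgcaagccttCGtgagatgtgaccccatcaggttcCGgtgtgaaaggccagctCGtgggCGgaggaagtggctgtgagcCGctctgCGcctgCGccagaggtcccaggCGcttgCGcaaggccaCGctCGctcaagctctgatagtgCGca
Mroh2b (chr15:4898487-4898736, plus strand): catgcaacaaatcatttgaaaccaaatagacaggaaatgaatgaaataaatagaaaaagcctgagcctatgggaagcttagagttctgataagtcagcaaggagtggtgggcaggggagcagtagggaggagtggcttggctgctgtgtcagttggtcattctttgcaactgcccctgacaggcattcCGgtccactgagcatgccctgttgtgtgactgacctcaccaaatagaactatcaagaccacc
Hoxd13 (chr2:74667975-74668224, plus strand): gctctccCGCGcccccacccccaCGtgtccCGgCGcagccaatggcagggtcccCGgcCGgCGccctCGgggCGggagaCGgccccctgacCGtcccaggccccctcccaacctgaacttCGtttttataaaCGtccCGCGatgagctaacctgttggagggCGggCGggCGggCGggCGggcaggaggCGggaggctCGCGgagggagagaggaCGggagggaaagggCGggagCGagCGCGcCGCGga
Sycp1 (chr3:102936101-102936350, minus strand): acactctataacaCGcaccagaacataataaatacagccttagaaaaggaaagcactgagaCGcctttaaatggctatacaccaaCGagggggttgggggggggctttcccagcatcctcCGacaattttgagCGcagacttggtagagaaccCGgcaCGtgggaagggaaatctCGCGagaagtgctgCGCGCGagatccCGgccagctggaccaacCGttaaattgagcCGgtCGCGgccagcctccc
These windows held 15, 1, 31 and 17 CpG dinucleotides in that order, against a median of 6 in 27025 promoters of the table. The E-box letters CACGTG, on either strand, were in the Hoxd13 and Sycp1 windows and in 6.05% of all 27025. The letters TTTCCCGC and TTCCCGCC, on either strand and able to overlap each other, were in none of the 4 and in 0.929% and 1.88% of all. A comparison of CpG content over all called genes was void, because a promoter was matched for only 74.3% of genes higher in the G9a-Glp knockout and 71.3% of those higher in the Eed knockout.

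Hox genes, the segmental identity regulators, were far more abundant in the Eed knockout. Their summed level over 35 genes was 0.408 to 4.89 CPM in the G9a-Glp knockout, 31.9 to 78.6 in the Eed knockout and 1.61 to 19.8 in wild type (14.3 at most without wild-type embryo 8), so the G9a-Glp and Eed ranges did not overlap. Of these genes, 29 had 0 reads in all 6 G9a-Glp libraries and 9 in all 9 Eed libraries. Only Hoxd13, Hoxb2 and Hoxa9 passed the filter on low counts, through their level in the Eed knockout, and all 3 were higher there. With no filter, 11 of 26 were higher in the Eed knockout and 0 in the G9a-Glp knockout, beside 885 (Eed) and 540 (G9a-Glp) of 23527 genes. Hoxa9, a factor of blood and posterior axis, was at 1.95, 4.49 and 6.57 CPM in the Eed knockout, and the G9a-Glp group held 1 read of it.

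Most called genes among other developmental transcription factors were also higher in the Eed knockout. Of 136 listed, 16 passed the filter, again often through the Eed libraries. Of these, 11 were higher in the Eed knockout, 1 in the G9a-Glp knockout and 4 not called, beside 6.3% and 2.79% of all genes tested. Their median difference was -2.43. With no filter, 29 of 120 were higher in the Eed knockout and 1 in the G9a-Glp knockout, beside 885 and 540 of 23527 genes. Tal1, the blood and endothelial regulator, was at 10.1, 13.4 and 20.7 CPM in the Eed knockout and 0.428, 1.28 and 2.04 in the G9a-Glp knockout, a difference of -3.37 (SE 0.33, edgeR adjusted p = 1.61e-07). The homeobox gene Nkx2-9 was at 3.79, 7.06 and 18.5 CPM against 0, 0.193 and 3.50, a difference of -3.30 (SE 0.63, edgeR adjusted p = 0.000916). Neither gene overlapped between the groups. Pax8, a thyroid and kidney regulator, went the other way: it was at 4.89, 11.7 and 19.2 CPM in the G9a-Glp knockout, 0.976, 1.54 and 3.52 in the Eed knockout and 0.726 (median) in wild type, a difference of 2.74 (SE 0.35, edgeR adjusted p = 8.01e-06).

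Called germline and meiosis genes lay in both directions. Of 70 listed autosomal genes, 29 were tested, 6 were higher in the G9a-Glp knockout (Asz1, Sohlh2, Rpl10l, Prdm1, Sycp2 and Hormad2), 5 were higher in the Eed knockout (Sycp1, Tex15, Tuba3a, Slc25a31 and Dmc1) and 18 were not called, beside 2.79% and 6.3% of all genes tested. The list's median difference was -0.35. Sohlh2, a helix-loop-helix factor of germ cell differentiation, was at 21.3, 40.1 and 62.9 CPM in the G9a-Glp knockout, 0.888, 6.05 and 11.2 in the Eed knockout and 0, 1.98 and 9.15 in wild type. Sohlh2 differed by 3.00 (SE 0.31, edgeR adjusted p = 5.19e-07). Rpl10l, the testis-expressed copy of a ribosomal protein gene, was at 199, 276 and 661 CPM against 22.2, 42.9 and 113 and 1.45, 6.32 and 19.5 in wild type. Rpl10l differed by 2.67 (SE 0.31, edgeR adjusted p = 2.84e-06). As a close copy of Rpl10, its reads may be shared with that gene. Both groups were above the wild-type range for Rpl10l, and they did not overlap each other. Prdm1, which specifies primordial germ cells and also acts in the visceral endoderm and trophoblast, was at 16.7, 18.7 and 25.2 CPM in the G9a-Glp knockout and 1.14, 5.65 and 10.6 in the Eed knockout, a difference of 1.82 (SE 0.32, edgeR adjusted p = 0.000459).

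Of the germline genes higher in the Eed knockout, Sycp1, the transverse filament of the synaptonemal complex, was at 10.1, 25.1 and 40.1 CPM in the Eed knockout, 1.75, 3.04 and 5.64 in the G9a-Glp knockout and 0, 0.404 and 2.53 in wild type. Sycp1 differed by -2.81 (SE 0.34, edgeR adjusted p = 4.69e-06). Tex15, a piRNA pathway protein, was at 14.9, 22.3 and 33.5 CPM against 0.408, 1.69 and 13.2, a difference of -2.44 (SE 0.46, edgeR adjusted p = 0.000796). Dmc1, the meiotic recombinase, was at 16.1, 38.3 and 48.6 CPM against 7.75, 13.1 and 17.1, a difference of -1.48 (SE 0.24, edgeR adjusted p = 0.00018), with ranges that overlapped. Sycp2, a lateral element protein of the same complex as Sycp1, was instead higher in the G9a-Glp knockout, at 5.805, 9.68 and 15.7 CPM against 1.68, 3.99 and 8.22, a difference of 1.21 (SE 0.34, edgeR adjusted p = 0.0263).

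Called genes of Nodal and Bmp signalling were all higher in the Eed knockout. Of 21 tested, 6 were higher in the Eed knockout and 0 in the G9a-Glp knockout, beside 6.3% and 2.79% of all genes tested. The list's median difference was -0.22, and it shares Nodal, Tdgf1, Lefty1, Lefty2 and Bmp8b with other lists below. The ligand Nodal was at 32.8, 64.7 and 113 CPM in the Eed knockout, 23.9, 30.4 and 42.9 in the G9a-Glp knockout and 11.6, 19.4 and 51.8 in wild type, a difference of -1.14 (SE 0.25, edgeR adjusted p = 0.00412). Its co-receptor Tdgf1 was at 303, 550.0 and 917 CPM against 37.2, 122 and 393 and 159, 367 and 1125 in wild type, a difference of -1.70 (SE 0.38, edgeR adjusted p = 0.00402). The Nodal ranges overlapped, as did those of Tdgf1. The feedback inhibitor Lefty2 was at 67.3, 94.3 and 173 CPM in the Eed knockout, 5.94, 23.7 and 32.9 in the G9a-Glp knockout and 0.33, 96.9 and 324 in wild type. Lefty2 differed by -2.22 (SE 0.31, edgeR adjusted p = 2.73e-05), without overlap between the knockouts. With wild type in the fit, the Lefty2 call was lost (edgeR adjusted p = 0.0615). The related inhibitor Lefty1 was at 28.4, 128 and 300.5 CPM against 9.41, 12.2 and 37.9 and 0.363, 2.52 and 27.4 in wild type, a difference of -3.10 (SE 0.40, edgeR adjusted p = 1.04e-05), with the lowest Eed library inside the G9a-Glp range. Gdf3, a ligand of the same pathway, was at 8.57, 31.1 and 65.7 CPM against 8.13, 16.9 and 25.6, a difference of -1.13 (SE 0.34, edgeR adjusted p = 0.0402). Bmp8b, a BMP ligand of the ExE, was at 2.42, 9.43 and 36.4 CPM against 1.22, 2.06 and 5.50, a difference of -1.96 (SE 0.56, edgeR adjusted p = 0.0262). That call was lost without any 1 of G9a-Glp embryos 1, 3, 4 or 7 or Eed embryo 8 (edgeR adjusted p 0.0526 to 0.0648).

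Of 28 tested epiblast genes, 2 were higher in the Eed knockout (Lefty2 and Tdgf1), 0 in the G9a-Glp knockout and 26 not called, beside 6.3% and 2.79% of all genes tested, with a median difference of 0.02. Without Eed embryos 9 and 10, 4 were higher in the G9a-Glp knockout and 3 in the Eed knockout. Among 15 tested primitive streak and mesendoderm genes, Lefty1, Fgf4, Dll3 and Nodal were higher in the Eed knockout and Eomes in the G9a-Glp knockout. Fgf4, the epiblast ligand that sustains the ExE, was at 3.46, 7.196 and 11.4 CPM in the Eed knockout, 0.774, 1.77 and 3.66 in the G9a-Glp knockout and 5.45, 6.60 and 11.4 in wild type, a difference of -1.69 (SE 0.39, edgeR adjusted p = 0.0059). Dll3, a Notch pathway inhibitor, was at 8.00, 14.3 and 33.5 CPM against 3.76, 5.16 and 11.0, a difference of -1.46 (SE 0.31, edgeR adjusted p = 0.00251). Both overlapped between the groups in their ranges. Eomes, the T-box factor of early mesendoderm, was at 25.7, 67.9 and 125 CPM in the G9a-Glp knockout and 15.1, 28.3 and 91.2 in the Eed knockout, a difference of 1.01 (SE 0.32, edgeR adjusted p = 0.0488), with ranges that overlapped widely. With wild type in the fit, 0 genes of this list were called higher in the G9a-Glp knockout. Of 14 tested Wnt genes, 2 were higher in the Eed knockout and 0 in the G9a-Glp knockout. The receptor Fzd6 was at 27.6, 60.6 and 77.6 CPM in the Eed knockout, 7.27, 14.9 and 22.0 in the G9a-Glp knockout and 15.3, 19.4 and 32.0 in wild type. Fzd6 differed by -1.89 (SE 0.25, edgeR adjusted p = 1.64e-05), without overlap. The ligand Wnt5a was at 3.99, 10.4 and 22.2 CPM against 0, 2.49 and 4.51, a difference of -1.98 (SE 0.48, edgeR adjusted p = 0.00877), and its ranges overlapped.

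Genes of the chromatin complexes themselves were compared next, beside 2.79% of all genes called higher in the G9a-Glp knockout and 6.3% called higher in the Eed knockout. Of 8 tested PRC2 genes only Eed was called. Of 17 tested PRC1 genes, 3 were higher in the Eed knockout and 0 in the G9a-Glp knockout, with a median difference of -0.23. Cbx8, which reads H3K27 trimethylation in canonical PRC1, was at 2.52, 5.88 and 9.32 CPM in the Eed knockout and 0, 1.65 and 3.66 in the G9a-Glp knockout, a difference of -1.71 (SE 0.48, edgeR adjusted p = 0.0257). That call was lost without any 1 of G9a-Glp embryos 1, 4 or 7 (edgeR adjusted p 0.0506 to 0.0684), without embryos 2 and 7 together (0.0574) and with wild type in the fit. Bmi1, a PRC1 ring-finger partner, was at 8.85, 13.1 and 16.2 CPM against 0.428, 4.42 and 9.41 and 1.61, 3.27 and 5.48 in wild type, a difference of -1.30 (SE 0.35, edgeR adjusted p = 0.0189). E2f6, the DNA-binding subunit of a variant PRC1 that acts at germline genes, was at 18.4, 28.6 and 32.3 CPM in the Eed knockout, 14.7, 16.2 and 18.8 in the G9a-Glp knockout and 18.9, 28.5 and 71.7 in wild type, a difference of -0.68 (SE 0.18, edgeR adjusted p = 0.0147). The E2f6 call was lost without G9a-Glp embryos 2 and 7 (edgeR adjusted p = 0.085) and with wild type in the fit. Of 16 tested H3K9 methylation genes, Ehmt1 and Ehmt2 alone were called.

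Among 12 tested DNA methylation genes, Dppa3 differed most. Dppa3, or Stella, which restrains Uhrf1 and Dnmt1 in germ cells and eggs, was at 45.1, 89.5 and 187 CPM in the Eed knockout, 1.93, 12.6 and 20.3 in the G9a-Glp knockout and 3.23, 10.7 and 21.5 in wild type. Dppa3 differed by -3.15 (SE 0.38, edgeR adjusted p = 4.37e-06), with no overlap between the knockouts. Tet3 and Tet1, dioxygenases that oxidise 5-methylcytosine, were higher in the G9a-Glp knockout. Tet3 was at 16.2, 22.7 and 24.8 CPM there against 7.18, 11.1 and 21.2, a difference of 0.85 (SE 0.21, edgeR adjusted p = 0.00984). Tet1 was at 70.4, 97.2 and 125 CPM against 64.4, 72.0 and 88.0, a difference of 0.39 (SE 0.12, edgeR adjusted p = 0.0464). It lost its call without any 1 of G9a-Glp embryos 2, 3, 5 or 7 or Eed embryos 2, 4, 5, 8 or 9 (edgeR adjusted p 0.0525 to 0.106) and without G9a-Glp embryos 2 and 7 together (0.222). The ranges of both Tet genes overlapped between the groups.

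Called genes of p53 and cell-cycle arrest were all higher in the Eed knockout. Of 29 tested, 5 were higher there, 0 in the G9a-Glp knockout and 24 not called, beside 6.3% and 2.79% of all genes tested. The list's median difference was -0.31. The summed level of the 42 genes in the table was 1829 to 2216 CPM in the G9a-Glp knockout, 2079 to 2608 in the Eed knockout and 1103 to 1439.8 in wild type, so both knockouts lay above wild type and overlapped each other. Ccng1, a p53-induced cyclin, was at 140.3, 149.9 and 189 CPM in the Eed knockout, 50.5, 86.7 and 110.5 in the G9a-Glp knockout and 42.3, 59.9 and 88.4 in wild type. Ccng1 differed by -0.90 (SE 0.16, edgeR adjusted p = 0.000349), without overlap. Perp, a p53 effector of desmosomes, was at 21.2, 27.5 and 62.5 CPM against 4.49, 6.29 and 14.7, a difference of -1.90 (SE 0.31, edgeR adjusted p = 0.000187). Igfbp3, which binds insulin-like growth factors, was at 30.7, 52.8 and 132 CPM against 8.98, 19.6 and 33.9, a difference of -1.68 (SE 0.32, edgeR adjusted p = 0.00101). Dcxr, a xylulose reductase, was at 23.1, 31.1 and 36.6 against 10.3, 15.3 and 22.0, a difference of -0.96 (SE 0.19, edgeR adjusted p = 0.0015). Perp and Dcxr did not overlap between the knockouts, and Igfbp3 did.

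Clustered protocadherins, cell-surface adhesion proteins whose genes lie in arrays, had 15 members that passed the filter on low counts, all of them called higher in the Eed knockout. Their medians were 4.23 to 5.88 CPM in the Eed knockout and 1.38 to 1.65 in the G9a-Glp knockout, so they passed mainly through the Eed libraries. With no filter, 13 of 57 were called higher in the Eed knockout and 0 in the G9a-Glp knockout, beside 885 and 540 of 23527 genes. These 15 are all of the gamma cluster on chromosome 18, and their annotated spans overlap, so they may share reads and are not separate measurements. Pcdhga4, for example, was at 2.81, 4.63 and 9.32 CPM in the Eed knockout, 0.611, 1.42 and 2.85 in the G9a-Glp knockout and 0.419, 1.69 and 22.9 in wild type (3.16 at most without wild-type embryo 8). Pcdhga4 differed by -1.73 (SE 0.39, edgeR adjusted p = 0.00456). With wild type in the fit, 0 of 16 were called (edgeR adjusted p = 0.086 for Pcdhga4), and without Eed embryos 9 and 10 only 1 passed the filter and was called.

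Markers of neighbouring tissues were followed beside these results. For 20 ExE genes the summed level was 112 to 208 CPM in the G9a-Glp knockout, 215 to 404 in the Eed knockout and 112 to 189 in wild type, so the Eed range lay above the other 2. Of 10 tested, 2 (Bmp8b and Cldn3) were higher in the Eed knockout and 0 in the G9a-Glp knockout, beside 6.3% and 2.79% of all genes tested. With no filter, 5 of 20 ExE genes were higher in the Eed knockout and 0 in the G9a-Glp knockout, beside 885 and 540 of 23527 genes. Cldn3, a tight-junction claudin, was at 16.4, 23.7 and 49.1 CPM against 3.10, 6.56 and 11.5, a difference of -1.90 (SE 0.30, edgeR adjusted p = 0.000114). Summed levels of 19 trophoblast genes were 56.4 to 92.8 CPM in the G9a-Glp knockout, 60.7 to 170.0 in the Eed knockout and 47.2 to 136 in wild type. The 32 visceral endoderm genes summed to 271 to 934 CPM in the G9a-Glp knockout, 372 to 601 in the Eed knockout and 169 to 1782 in wild type (549.8 at most without wild-type embryo 8). Of 12 tested, Spink1, Dab2 and Lrp2 were higher in the G9a-Glp knockout and Gata4 in the Eed knockout, beside 2.79% and 6.3% of all genes tested. With no filter, 9 of 30 were higher in the G9a-Glp knockout and 2 in the Eed knockout, beside 540 and 885 of 23527 genes. G9a-Glp embryos 2, 3 and 5 had summed levels of 801, 719.8 and 934 CPM, and embryos 1, 4 and 7 had 274, 271 and 344.6, on either side of the Eed range. Spink1, a secreted trypsin inhibitor, was at 0.752, 40.5 and 83.2 CPM in the G9a-Glp knockout, 0, 1.68 and 4.49 in the Eed knockout and 0, 0.66 and 133 in wild type, a difference of 4.29 (SE 0.76, edgeR adjusted p = 0.000459). G9a-Glp embryos 1 and 4, at 0.752 and 1.55 CPM, lay inside the Eed range, and embryo 7 was at 5.99 CPM. Embryos 2, 3 and 5 were at 81.2, 75.0 and 83.2 CPM, so the G9a-Glp median lay between these levels.

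Lrp2, the endocytic receptor megalin, was at 48.5, 64.8 and 88.9 CPM against 36.3, 45.0 and 52.4, a difference of 0.59 (SE 0.15, edgeR adjusted p = 0.0125). Dab2, its endocytic adaptor, was at 15.8, 39.9 and 74.1 CPM against 19.15, 24.2 and 33.3, a difference of 0.77 (SE 0.24, edgeR adjusted p = 0.0495). The Dab2 call was lost without any 1 of 11 libraries (G9a-Glp embryos 2, 3 and 5 and all Eed embryos but embryo 3, edgeR adjusted p 0.0504 to 0.217) and without G9a-Glp embryos 2 and 7 together (edgeR adjusted p = 0.0734). Gata4, a primitive endoderm factor that is also on the developmental list, was at 3.08, 7.43 and 21.7 CPM in the Eed knockout and 0, 1.18 and 7.94 in the G9a-Glp knockout, a difference of -2.13 (SE 0.56, edgeR adjusted p = 0.0151), with embryo 1 highest in the Eed knockout. Its call was lost with wild type in the fit (edgeR adjusted p = 0.0774). Of 4 tested decidua and blood genes, 1 was higher in the Eed knockout and 0 in the G9a-Glp knockout, beside 6.3% and 2.79% of all genes tested. That gene, Alpl, tissue-nonspecific alkaline phosphatase, was at 16.0, 22.1 and 45.9 CPM in the Eed knockout against 7.52, 12.5 and 22.1. Alpl differed by -0.95 (SE 0.25, edgeR adjusted p = 0.0166). The Alpl call was lost without G9a-Glp embryo 1 or 5 (edgeR adjusted p 0.051 and 0.0518) and without embryos 2 and 7 together (0.0769). Genes with 0 reads in all 6 G9a-Glp and in all 9 Eed libraries numbered 1 and 0 of the 20 ExE genes, 10 and 2 of the 19 trophoblast genes and 3 and 3 of the 32 visceral endoderm genes. The part of other cell types in the differences between the knockouts was not tested.

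**Figure D3:**
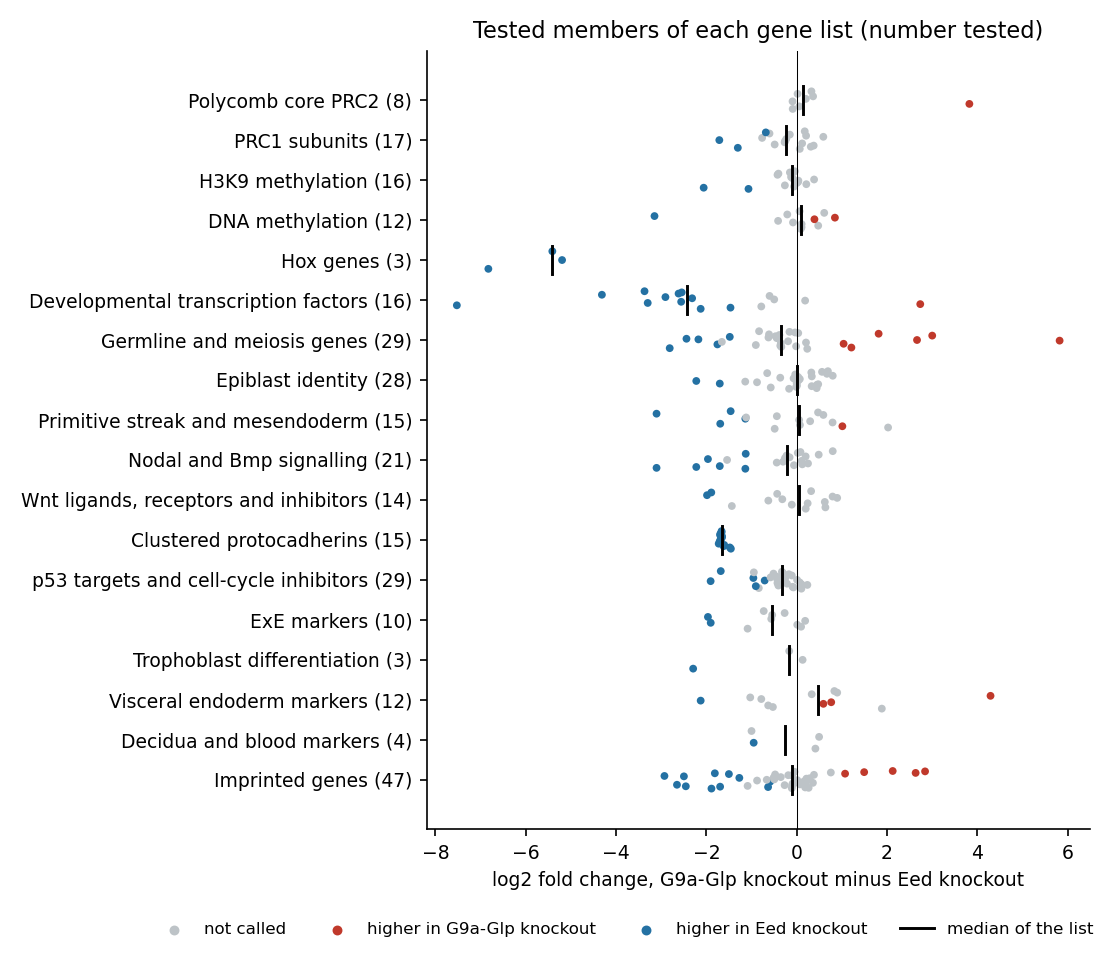
Log2 fold change (G9a-Glp minus Eed knockout, x axis) of each tested gene in 18 gene lists, with 1 point per gene, colour for genes that passed edgeR's test and a bar at each list's median. Of 16 tested developmental transcription factors, many of which passed the filter on low counts through the Eed libraries, 11 were called on the left and Pax8 on the right; germline genes extend to both sides and epiblast identity genes centre near 0 (median 0.02 for 28).

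Imprinted genes changed in level in both directions. Of 47 listed genes tested, 5 were higher in the G9a-Glp knockout: Platr4, Gab1, Gm13261, Smoc1 and Slc38a4. Another 11 were higher in the Eed knockout and 31 were not called, beside 2.79% (G9a-Glp) and 6.3% (Eed) of all genes tested. The list's median difference was -0.10. Not all listed genes were expressed mainly from 1 allele in wild-type epiblast. Mean maternal shares there were 47.6% for Gab1, 44.1% for Smoc1, 58.2% for Sfmbt2 and 53.2% for Atp10a. Gab1, a docking protein of growth factor receptors, was at 65.4, 121 and 316 CPM in the G9a-Glp knockout, 9.14, 24.7 and 39.7 in the Eed knockout and 14.5, 17.8 and 37.4 in wild type. Gab1 differed by 2.64 (SE 0.31, edgeR adjusted p = 3.06e-06). Platr4, a pluripotency-associated noncoding RNA, was at 38.5, 87.9 and 124 CPM against 5.98, 9.15 and 23.8 and 6.72, 12.2 and 18.97 in wild type. Platr4 differed by 2.84 (SE 0.30, edgeR adjusted p = 5.68e-07). For both genes the Eed and wild-type ranges overlapped and all 6 G9a-Glp libraries were higher. Plagl1, a zinc-finger factor of an imprinted gene network, was at 3.99, 7.58 and 11.8 CPM in the Eed knockout and 0, 0.682 and 3.67 in the G9a-Glp knockout, a difference of -2.93 (SE 0.55, edgeR adjusted p = 0.000796). Osbpl5, a lipid transfer protein of the Kcnq1 imprinted domain, was at 3.43, 5.86 and 14.6 CPM against 0, 0.999 and 2.14, a difference of -2.65 (SE 0.47, edgeR adjusted p = 0.000487). Phlda2 and Cdkn1c, growth-restraining genes of that same domain, were higher in the Eed knockout too. Phlda2 was at 53.9, 93.5 and 221 CPM against 4.70, 15.5 and 39.9 and a wild-type median of 80.0. Phlda2 differed by -2.45 (SE 0.39, edgeR adjusted p = 0.000148). Cdkn1c was at 17.3, 31.8 and 40.8 CPM against 4.89, 8.89 and 10.9 and a wild-type median of 10.3, a difference of -1.69 (SE 0.23, edgeR adjusted p = 1.55e-05). All 4 of these were without overlap between the knockouts. The other called imprinted genes higher in the Eed knockout were Peg12, H19, Sfmbt2, Zdbf2, Sgce, Grb10 and Atp10a.

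The parental origin of reads differed between the knockouts at few genes. Maternal and paternal counts were compared at 9279 autosomal genes by a group-by-allele term in edgeR: 19 (0.205%) were more maternal in the G9a-Glp knockout and 16 (0.172%) were more paternal in it. Among 42 tested genes of the imprinted list, Zdbf2 alone was called, and 9 had an unadjusted p under 0.05, beside 697 of all 9279. Some of the 42 drew reads from both alleles in wild type, such as Jade1 (mean maternal share 47.7%), Nap1l4 (51.5%) and Commd1 (40.6%). Zdbf2 (chr1:63200358-63314576), a zinc-finger gene expressed from the paternal allele, had lowest, median and highest maternal shares of 40.8%, 55.6% and 72.2% in the Eed knockout, 0%, 7.69% and 34.5% in the G9a-Glp knockout and 0%, 1.30% and 5.77% in wild type. The difference in the log2 ratio of maternal to paternal reads was -3.66 (SE 0.47, edgeR adjusted p = 4.76e-05), and the groups did not overlap. Its mean maternal level was 26.0 CPM in the Eed knockout and 1.46 in the G9a-Glp knockout, while the paternal means were 19.14 and 14.1 CPM. The G9a-Glp library of embryo 4 had the highest share of its group, from 29 reads. In total level Zdbf2 was at 28.7, 41.5 and 76.6 CPM in the Eed knockout and 11.2, 15.2 and 21.2 in the G9a-Glp knockout, a difference of -1.50 (SE 0.22, edgeR adjusted p = 4.95e-05).

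Among genes more maternal in the G9a-Glp knockout, the noncoding gene Gm32885 (chr15:97157117-97167278) had the smallest p and not the largest difference, and it lies 101 kb from Slc38a4. Its maternal share was 17.01%, 27.3% and 35.6% in the G9a-Glp knockout, 0.913%, 2.67% and 6.03% in the Eed knockout and 3.33%, 7.84% and 10.4% in wild type, a log2 allelic difference of 3.49 (SE 0.25, edgeR adjusted p = 3.44e-10), without overlap. Its total level was 1723, 2422 and 4042 CPM in the G9a-Glp knockout, 67.0, 143 and 579 in the Eed knockout and 28.7, 69.8 and 85.5 in wild type, a difference of 3.67 (SE 0.35, edgeR adjusted p = 1.16e-07). The mean maternal level was 742 CPM in the G9a-Glp knockout and 6.56 in the Eed knockout, and the paternal means were 1779 and 193, so the means of both alleles were higher in the G9a-Glp knockout. Slc38a4 (chr15:96994823-97055956), an amino acid transporter with a noncanonical, histone-based imprint, had maternal shares of 14.6%, 33.0% and 37.2% in the G9a-Glp knockout, 7.92%, 12.4% and 35.4% in the Eed knockout and 0.274%, 0.735% and 6.33% in wild type. The allelic difference between the knockouts was 1.01 (SE 0.31, edgeR adjusted p = 0.289) and did not pass. The ranges overlapped, and all knockout libraries lay above every wild-type library. Without Eed embryos 9 and 10, whose shares were 35.4% and 28.6%, the Slc38a4 difference passed (edgeR adjusted p = 0.0201). That alternative was chosen after seeing the data, and of 23 alternatives it alone changed the call. Eed embryos 2 and 8, at 29.9% and 22.0%, stayed in that fit and lay inside the G9a-Glp range. Total Slc38a4 was at 209, 252 and 263 CPM in the G9a-Glp knockout, 82.8, 121 and 152 in the Eed knockout and 74.0, 119 and 181 in wild type, a difference of 1.07 (SE 0.13, edgeR adjusted p = 4.37e-06).

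Mcts2, a paternally expressed retrogene, had maternal shares of 0%, 4.62% and 36.8% in the Eed knockout and 0%, 0.472% and 5.56% in the G9a-Glp knockout, a difference of -2.36 (SE 0.86, edgeR adjusted p = 0.409) that did not pass. Its Eed libraries were spread, with 0% in embryos 5 and 10 and 36.8% in embryo 2. Cd81, a tetraspanin of the Kcnq1 domain, had shares of 58.6%, 63.2% and 67.2% in the G9a-Glp knockout, 57.2%, 60.5% and 62.8% in the Eed knockout and 62.3%, 68.2% and 71.5% in wild type, a difference of 0.18 (SE 0.09, edgeR adjusted p = 0.681) that did not pass either.

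Outside the imprinted list, other genes were named as those with the largest differences in mean share among called genes whose groups did not overlap: Eed, the noncoding Gm41254, Rinl, a Ras and Rab interactor, Gm14124, Rbks, ribokinase, and Plet1, a surface protein of placental and epithelial progenitors. Gm13154, Tmem45a and Ccdc152 were also called, with maternal shares 43.3, 42.2 and 40.6 points higher in the G9a-Glp knockout (edgeR adjusted p = 0.0185, 0.00767 and 0.00429), larger than for Eed and Rinl. Their groups overlapped. Eed reads were 8.51%, 29.4% and 52.0% maternal in the Eed knockout, over 8 libraries with at least 10 reads, against 54.9%, 64.5% and 68.1% in the G9a-Glp knockout and 44.0%, 63.9% and 71.0% in wild type, a difference of 1.83 (SE 0.32, edgeR adjusted p = 0.00386). Gm41254 was 30.8%, 53.4% and 71.0% maternal in the G9a-Glp knockout and 0%, 11.0% and 17.6% in 6 Eed libraries, a difference of 2.90 (SE 0.53, edgeR adjusted p = 0.00596). In 5 wild-type libraries the Gm41254 share ran from 7.14% to 78.9%, a range that overlapped both knockouts. Wild-type embryo 8 was highest, and the others reached 36.4% at most. The annotated span of Gm41254 overlaps that of Ccdc152, so these genes may share reads and are not separate measurements. Rinl was entirely maternal in the 3 G9a-Glp libraries with at least 10 reads and 63.6%, 79.1% and 84.6% in 6 Eed libraries, a difference of 5.50 (SE 1.04, edgeR adjusted p = 0.0111). With limma on the deposited ratio it was not called (adjusted p = 0.148). The knockout groups did not overlap at Eed, Gm41254 and Rinl, as the choice required. Each of these genes rests on a median of at most 42 reads per knockout library, except Eed in the G9a-Glp knockout (342).

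Toward the paternal allele in the G9a-Glp knockout, Gm14124 was 31.8%, 65.5% and 74.5% maternal there and 78.1%, 92.0% and 100% in the Eed knockout, a difference of -2.36 (SE 0.45, edgeR adjusted p = 0.00829). Rbks was 14.3%, 24.5% and 26.7% maternal against 31.8%, 48.6% and 63.6%, a difference of -1.79 (SE 0.41, edgeR adjusted p = 0.0405). The Rbks call was lost without any 1 of 13 libraries (all but Eed embryos 1 and 6, edgeR adjusted p 0.0506 to 0.138) and without G9a-Glp embryos 2 and 7 together (0.094). Plet1 was 28.6%, 49.0% and 55.6% maternal against 61.5%, 65.3% and 85.7%, a difference of -1.36 (SE 0.31, edgeR adjusted p = 0.0399). The Plet1 call was lost without any 1 of 11 libraries (G9a-Glp embryos 1, 2, 3, 5 and 7 and Eed embryos 2, 4, 5, 6, 9 and 10, edgeR adjusted p 0.0502 to 0.117) and without G9a-Glp embryos 2 and 7 together (0.172). None of the 3 overlapped between the knockouts, again by the choice, and the wild-type ranges of Rbks and Plet1 were wide.

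**Figure D4:**
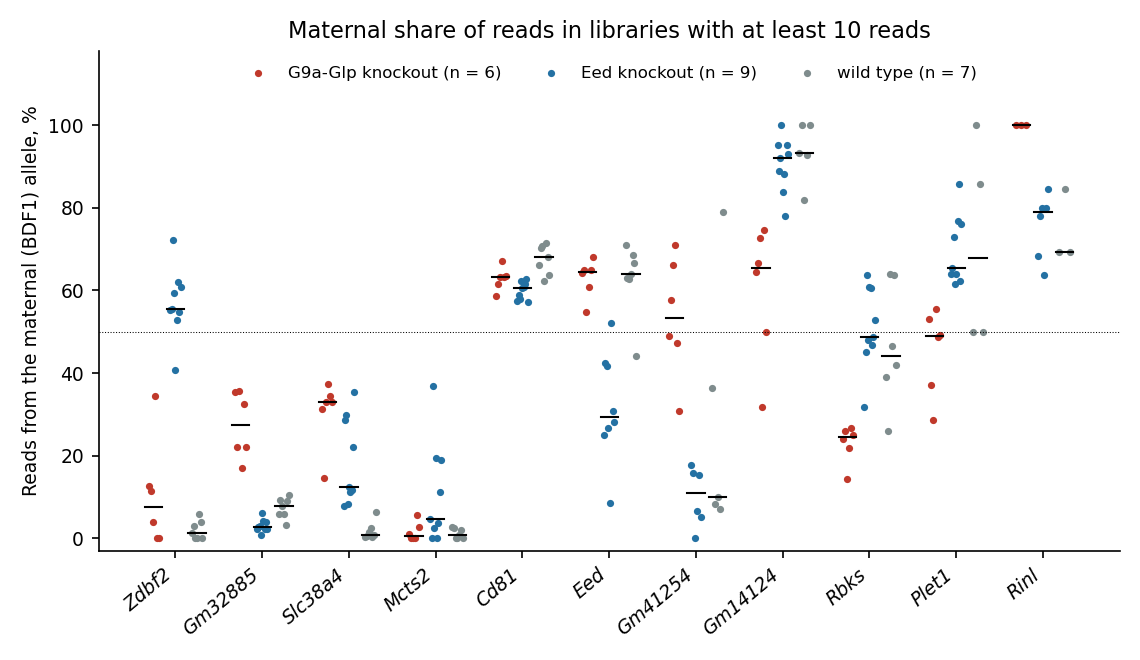
Share of reads from the maternal (BDF1) allele, in percent, at 11 genes, with 1 point per library of at least 10 reads, a bar at each group's median and a dotted line at equal shares. Zdbf2 is at 40.8% to 72.2% in the Eed knockout and 0% to 34.5% in the G9a-Glp knockout, and Gm32885 is at 17.01% to 35.6% in the G9a-Glp knockout and 0.913% to 6.03% in the Eed knockout.

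The share of reads from the silent allele was summarised over imprinted genes. A gene counted in a library where it had at least 20 reads. Only genes with a wild-type mean share of the listed silent allele of at most 30% were used. The wild-type level of this score is therefore partly set low by the choice of genes. The median over up to 20 listed genes, averaged over libraries, was 2.94% ± 1.45 (SD, n = 6) in the G9a-Glp knockout, 4.71% ± 2.79 (SD, n = 9) in the Eed knockout and 1.58% ± 1.35 (SD, n = 7) in wild type. Library values ran from 1.49% to 5.23% in the G9a-Glp knockout, 1.06% to 10.9% in the Eed knockout and 0.513% to 4.44% in wild type, where embryo 8 was highest. The 3 ranges overlapped, and no test was made of this score. Pooling reads over the genes gave 11.6% in the G9a-Glp knockout and 8.51% in the Eed knockout, so the order of the 2 knockouts turned. Gene by gene, the silent allele of H19, the maternally expressed noncoding RNA, took 9.36% ± 3.23 (SD, n = 6) of reads in the G9a-Glp knockout and 14.7% ± 8.59 (SD, n = 9) in the Eed knockout, with means below the 18.0% ± 7.26 (SD, n = 7) of wild type. That of Peg3 took 7.65% ± 11.5 (SD, n = 6) in the G9a-Glp knockout and 5.01% ± 5.20 (SD, n = 9) in the Eed knockout, with 0.897% ± 0.849 (SD, n = 7) in wild type. G9a-Glp embryo 4 was at 31.0% for Peg3, and no other library of its group was above 5.69%. By median the order of the knockouts was the other way, at 2.58% in the G9a-Glp knockout and 4.17% in the Eed knockout. The silent allele of Meg3 took 0.534% ± 0.86 (SD, n = 6) in the G9a-Glp knockout and 0.66% ± 1.28 (SD, n = 9) in the Eed knockout, with 0.547% ± 0.545 (SD, n = 7) in wild type. Shares were higher for Platr4, at 44.3% ± 8.82 (SD, n = 6) in the G9a-Glp knockout and 46.8% ± 11.0 (SD, n = 6) in the Eed knockout, with 24.3% ± 8.12 (SD, n = 5) in wild type. For Inpp5f, a phosphatase, they were 29.7% ± 5.56 (SD, n = 6) in the G9a-Glp knockout and 26.2% ± 4.67 (SD, n = 9) in the Eed knockout, with 24.4% ± 4.79 (SD, n = 7) in wild type. The ranges of the 2 knockouts overlapped for all 5, and none passed the allelic test (edgeR adjusted p = 0.711, 0.947, 0.968, 0.973 and 0.888).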

How the data were processed

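RNA was amplified from single E6.5 epiblasts (SMART-Seq v4, Nextera XT libraries, paired-end NovaSeq reads), per the labels' protocols. STAR 2.5.0, HTSeq and the mm10 build are named in the submitters' processing notes. The authors' deposited table gives, per gene and library, total read counts over polymorphisms, an allelic ratio (the CAST share of the reads, centred on equal alleles) and an allelic score, which the deposited notes describe as the -log10 of a binomial p. Use of strand is not given in the sources used here.

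Maternal and paternal counts were recovered from the deposited total count, ratio and score, and the score computed from them matched 211850 of 211865 scored values (99.9929%) within 0.0011 on the log10 scale. Another 701 scores at their limit held 5.598% of reads, and there the ratio alone was used. Total counts were tested with edgeR 4.0.16 in R 4.3.3 (quasi-likelihood, TMM scaling, filterByExpr, Benjamini-Hochberg adjustment over all genes tested, threshold 0.05), on the 15 knockout libraries without covariates. SE is the size of the log2 difference over the root of F. Allelic counts were tested with a library term and a group-by-allele term, at genes where each group had 3 or more libraries reaching 10 reads. A fold against a group at 0 uses 3 counts over that group as the limit, and exact counting intervals are at 95% and cover counting error only.

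Members and gene lists were chosen with earlier results of these data known. Named genes were the 12 largest called differences per direction without overlap and with a mean of at least 5 CPM in the higher group, up to 4 called genes per list, the targeted genes, and for alleles the called imprinted genes, Slc38a4, Zdbf2, Mcts2 and Cd81, and 4 called genes per direction with the largest difference in share among those without overlap between the groups. Values of Pax8, Prdm1, Tex15, Dmc1, Sycp2, Gdf3, Eomes, Phlda2 and Cdkn1c fall outside this rule, were chosen after they were seen and were not followed through the alternatives one by one. Other list members are named only to complete a count, and results for some list members are not reported here. On simulated counts the expression test called 37% of genes changed 2-fold, 98% changed 4-fold and 0.0515% of unchanged genes, and the allelic test called 46% of genes raised by 15 points, 87% raised by 25 points and 0.0881% unchanged. The simulated expression counts had the same dispersion for every gene and no outlying libraries. Simulated allelic shifts were placed only at genes with reads from both alleles in fair shares. These rates may thus not hold for the real libraries or for imprinted genes. Alternatives were DESeq2 1.42.0, RLE scaling, library totals, no filter, wild type in the fit, sex as a covariate, a replicate block, limma 3.58.1 on the deposited ratio, other read minimums and leaving out libraries. Promoters came from RefSeq GRCm38.p6.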

Additional observations from a re-analysis of the deposited data

Results flagged for a closer look

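In 172 groups of libraries examined, a highest or lowest library lay far from the others 27 times by Dixon's criterion, where chance gives about 1 in 20. Wild-type embryo 8 was that library 15 times. It had 20567 genes with reads and was highest in wild type for E2f6 (71.7 CPM), Sohlh2 (9.15 CPM), Dll3 (25.2 CPM), Nodal (51.8 CPM), Igfbp3 (70.1 CPM) and Gab1 (37.4 CPM). Pcdhga4, Pcdhgb2 and Pcdhga5 were each at 22.9 CPM there and Pcdhgb5 at 19.8 CPM. Its Eed level was lowest, at 38.1 CPM, and its maternal share was lowest for Eed (44.0%) and highest for Slc38a4 (6.33%). Its silent-allele share was 4.44%. Pla2g1b stood out in wild-type embryo 4, at 169.95 CPM.

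Eed embryo 8 was highest in the Eed knockout for AI662270 (17.6 CPM), Bmp8b (36.4 CPM) and Perp (62.5 CPM). Eed embryo 1 was highest for Gata4 (21.7 CPM) and Osbpl5 (14.6 CPM), embryo 6 for Hoxd13 (25.1 CPM), embryo 9 for Tal1 (20.7 CPM) and embryo 10 for Cldn3 (49.1 CPM). In the G9a-Glp knockout, embryo 2 was highest for Gata4 (7.94 CPM) and lowest for the maternal share of Slc38a4 (14.6%), and embryo 4 was highest for the maternal share of Zdbf2 (34.5%).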

How the results depend on the processing

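No named gene changed direction under any alternative that gave a value, while the order of the knockouts in the silent-allele share turned when reads were pooled. Of 66 named expression genes, 50 kept their call under every alternative that tested them and 16 lost it under at least 1. Of 8 called named allelic genes, 5 kept it and 3 lost it. Genes higher in the G9a-Glp knockout numbered 276, and 540 with no filter on low counts (23527 genes tested) and 572 without Eed embryos 9 and 10, an alternative chosen after seeing the data. Leaving out 1 library gave 213 to 344 genes higher in the G9a-Glp knockout and 522 to 626 higher in the Eed knockout. Genes more maternal in the G9a-Glp knockout numbered 19, and 10 with a minimum of 50 reads, 10 with limma on the deposited ratio and 39 with robust dispersion, which gave 25 more paternal genes against 16. Leaving out 1 library gave 13 to 20 more maternal and 10 to 16 more paternal genes, with 10 without G9a-Glp embryo 5 or Eed embryo 9. The silent-allele share pooled over reads was 11.6% in the G9a-Glp knockout and 8.51% in the Eed knockout, and leaving out 1 library gave means of 2.48% to 3.23% and 3.93% to 5.16%. Fewer genes were tested at 50 reads (5554), and the cause of the other shifts was not tested. Embryo numbers 1 to 5 occur in both knockouts but did not pair the libraries: correlations of their deviations ran from -0.15 to 0.21 and 1 of 5 matched its own number best. With the replicate block, 507 genes were higher in the G9a-Glp knockout and 602 in the Eed knockout, and 17 and 12 were called for alleles. Like counts did not mean the same genes. Of the 35 main allelic calls, 15 were kept with the block and 18 with limma on the deposited ratio. Of the 900 main expression calls, 654 were kept with the block. Depth limits genes of few reads, most of all allelic shares.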
